A study of Fundulus heteroclitus with 6 samples.

Results

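This account covers the transcript groups of killifish embryos whose read counts shifted in the same direction with PCB-126 in both populations studied. An isogroup is a set of assembled contigs taken to stem from a single gene. Members were chosen by their own read counts, and were the isogroups whose ratio of PCB-126 to DMSO reads was at least 2 in both populations, or at most 0.5 in both. There were 23 isogroups higher with PCB-126 in both populations and 28 lower in both, together 51 of the 22732 isogroups in the deposited counts. The ratio was the count plus 0.5 divided by the library total, for PCB-126 over DMSO. An isogroup also needed at least 20 reads in each population's pair of libraries and at least 1 DMSO read, and those with 100 or more reads in all 4 libraries were left out. In all, 1164 isogroups met these conditions on reads, and the 51 members are a part of them.

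The 4 libraries came from embryos of the Atlantic killifish, Fundulus heteroclitus, at 10 days post-fertilization (dpf), with 1 library for each of NBH embryos with PCB-126, NBH embryos with DMSO, SC embryos with PCB-126 and SC embryos with DMSO. NBH is New Bedford Harbor, a PCB-contaminated site, and SC is Scorton Creek, the reference site. By the study's methods the embryos were held with 50 nM PCB-126 or with the solvent, 0.1% DMSO, for 1 h beginning at 4 h post-fertilization, whereas the sample labels give 6 h before sampling. The parents of each population were 8 females and 5 males, and each library combined equal RNA of 3 pools of 20 whole embryos. The spread between pools therefore cannot be seen in the counts, and every comparison below is between the reads of single libraries, with no replicate check. In whole embryos, fewer cells of a type and less RNA per cell cannot be told apart. The counts summed to 123644 reads for NBH with PCB-126, 95410 for NBH with DMSO, 132893 for SC with PCB-126 and 124000 for SC with DMSO. The limit that a count of 0 allows, 3 counts, corresponds to 2.26 to 3.14 reads per 100000.

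PCB-126 is a dioxin-like polychlorinated biphenyl that binds the aryl hydrocarbon receptor (AHR), a transcription factor. The bound receptor enters the nucleus, pairs with its partner ARNT and switches on genes of detoxification, the cytochrome P450 genes CYP1A and CYP1B1 among them. In fish embryos sustained activation of the receptor is known for damage to the heart and vessels and for edema. Killifish of contaminated harbours have reduced sensitivity to such compounds, so the 2 populations offer a comparison of transcripts that shift in both with those that shift in one. The files pair the isogroups with no gene names or sequences and the reference table holds none of their identifiers. No isogroup could therefore be assigned to CYP1A, to another target of the receptor or to any pathway, and no marker of tissue could be read. The study searched the reads of these libraries with its array probes, and lists no read of CYP1A or CYP1B1 in either DMSO library. By that search neither gene meets the condition of a DMSO read, so neither would be a member. Both genes would also fall short of the minimum of reads in the NBH pair of libraries. All or nearly all of their reads in that search came from SC embryos with PCB-126, so the search does not show them shifted alike in both populations. The search was separate from the deposited counts per isogroup.

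The reads were those of 3'-anchored cDNA, so a longer transcript is not given more reads for its length. The deposited counts were not normalized, and levels are given here as reads per 100000 reads of the library. The ratios chose the members, so their sizes are a description and were not tested, and a member chosen for a large ratio in single libraries can overstate it. Intervals are exact 95% Clopper-Pearson intervals from the counts without the added 0.5, and cover counting error only.

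Among the 23 isogroups higher with PCB-126, isogroup00071 had the most reads. It had 143 reads with PCB-126 and 53 with DMSO in NBH embryos, and 121 with PCB-126 and 47 with DMSO in SC embryos. Both PCB-126 libraries were thus above both DMSO libraries, at 116 (NBH) and 91.1 (SC) against 55.5 (NBH) and 37.9 (SC) reads per 100000. The ratio of PCB-126 to DMSO was 2.07 in NBH (95% interval 1.51 to 2.91) and 2.39 in SC (1.70 to 3.44).

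The next in number of reads was isogroup00401. It had 83 reads with PCB-126 and 16 with DMSO in NBH embryos, and 79 with PCB-126 and 19 with DMSO in SC embryos. Its levels in the PCB-126 libraries were 67.1 (NBH) and 59.4 (SC) reads per 100000, against 16.8 (NBH) and 15.3 (SC) in the DMSO libraries, so that the 2 populations were close to each other under either treatment. The ratio was 3.91 in NBH (95% interval 2.33 to 7.33) and 3.80 in SC (2.33 to 6.78). With 2 exceptions, isogroup00071 and isogroup01874, a member of this set had fewer than 20 reads in at least 1 library. Isogroup01874, the third by reads and named after its values were seen, had 74 reads with PCB-126 and 22 with DMSO in NBH and 48 with PCB-126 and 20 with DMSO in SC.

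The other isogroups of this set held fewer reads, and over all 23 the total of the 4 libraries ran from 45 to 364 reads with a median of 76. Their reads in the libraries with PCB-126 ran from 17 to 143 in NBH (median 26) and from 17 to 121 in SC (median 30). With DMSO the reads ran from 2 to 53 in NBH (median 6) and from 2 to 47 in SC (median 8). The DMSO counts thus carried most of the counting error, with 17 of the 23 under 10 reads in NBH with DMSO and 14 under 10 in SC with DMSO, and none under 10 in a PCB-126 library. No member had a count of 0. The median level was 21.0 reads per 100000 with PCB-126 and 6.29 with DMSO in NBH, and 22.6 with PCB-126 and 6.45 with DMSO in SC. Together the 23 isogroups took 0.687% of the reads with PCB-126 and 0.220% with DMSO in NBH, and 0.642% with PCB-126 and 0.224% with DMSO in SC.

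**Figure D1:**
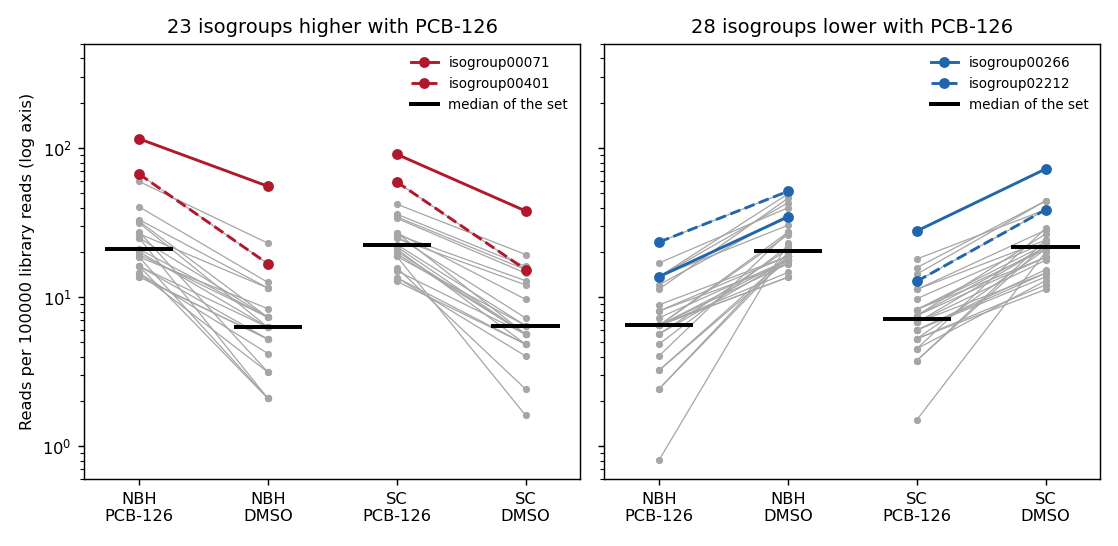
Levels of the 51 isogroups in the 4 libraries, in reads per 100000 library reads on a log axis, with the 23 higher with PCB-126 on the left and the 28 lower on the right. Each point is 1 isogroup in 1 library, lines join the PCB-126 and DMSO libraries of a population, coloured lines are the 2 isogroups of most reads in each set, and black bars are medians (21.0 and 6.29 in NBH and 22.6 and 6.45 in SC on the left, 6.47 and 20.4 in NBH and 7.15 and 21.8 in SC on the right, PCB-126 before DMSO).

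The ratios of the 23 isogroups ran from 2.07 to 9.72 in NBH (median 3.03) and from 2.01 to 9.52 in SC (median 2.80). A ratio of at least 3 was found for 12 of them in NBH, for 11 in SC and for 5 in both populations. The 5 include isogroup00401. Another of the 5 had 39 reads with PCB-126 and 6 with DMSO in NBH and 28 with PCB-126 and 6 with DMSO in SC, which gave ratios of 4.69 in NBH and 4.09 in SC, and in no other member of the set was the smaller of the 2 ratios as large. The remaining 3 had 18 to 31 reads in NBH with PCB-126, 4 to 7 in NBH with DMSO, 27 to 36 in SC with PCB-126 and 7 or 8 in SC with DMSO.

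The larger ratio was in NBH for 12 of the 23 isogroups and in SC for 11. In 14 of them the 2 ratios were within a factor of 1.5 of each other, and in 6 they were more than a factor of 2 apart. For the 1164 isogroups that met the conditions on reads, only the sizes of the 2 shifts were compared, whatever their direction. These sizes were within a factor of 1.5 in 708 and more than a factor of 2 apart in 206. The share close in size was about the same in the 23 as in all of these. Shifts of like size in opposite directions count as close there, so the 708 are not a count of close ratios. The rule asked for the same direction in both populations, so closeness of the ratios cannot be taken as a trait of the 23. The ratios furthest apart came from DMSO counts of 2 or 3 reads. An isogroup with 31 reads with PCB-126 and 2 with DMSO in NBH had a ratio of 9.72 there, and one of 2.72 in SC, where it had 36 reads with PCB-126 and 12 with DMSO. In the other direction, an isogroup with 25 reads with PCB-126 and 2 with DMSO in SC had a ratio of 9.52 there, and one of 2.43 in NBH, where it had 20 reads with PCB-126 and 6 with DMSO. These gaps rest on a few reads, and the difference between the 2 populations' ratios was not tested, since the rule used both.

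Among the 28 isogroups lower with PCB-126, isogroup00266 had the most reads. It had 17 reads with PCB-126 and 33 with DMSO in NBH embryos, and 37 with PCB-126 and 90 with DMSO in SC embryos. Its levels with PCB-126 were 13.7 (NBH) and 27.8 (SC) reads per 100000, against 34.6 (NBH) and 72.6 (SC) with DMSO, so that both PCB-126 libraries were below both DMSO libraries while SC stood above NBH under either treatment. The ratio of PCB-126 to DMSO was 0.403 in NBH (95% interval 0.208 to 0.734) and 0.387 in SC (0.254 to 0.568).

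The next, isogroup02212, had 29 reads with PCB-126 and 49 with DMSO in NBH embryos, and 17 with PCB-126 and 48 with DMSO in SC embryos. Its levels with PCB-126 were 23.5 (NBH) and 12.8 (SC) reads per 100000, against 51.4 (NBH) and 38.7 (SC) with DMSO. Here the order of the populations was the other way round, with NBH above SC under either treatment. The ratio was 0.460 in NBH (95% interval 0.278 to 0.737) and 0.337 in SC (0.178 to 0.585).

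Over the 28 isogroups the total of the 4 libraries ran from 42 to 177 reads with a median of 66. With PCB-126 the reads ran from 1 to 29 in NBH (median 8) and from 2 to 37 in SC (median 9.50). With DMSO they ran from 13 to 49 in NBH (median 19.5) and from 14 to 90 in SC (median 27). In this set the thin counts were those of the PCB-126 libraries, with 17 of the 28 under 10 reads in NBH with PCB-126 and 14 under 10 in SC with PCB-126. The median level was 6.47 reads per 100000 with PCB-126 and 20.4 with DMSO in NBH, and 7.15 with PCB-126 and 21.8 with DMSO in SC. Together the 28 isogroups took 0.229% of the reads with PCB-126 and 0.719% with DMSO in NBH, and 0.241% with PCB-126 and 0.694% with DMSO in SC.

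The ratios of the 28 isogroups ran from 0.0514 to 0.491 in NBH (median 0.339) and from 0.0915 to 0.483 in SC (median 0.390). A decrease of at least 3-fold was found for 14 of them in NBH, for 8 in SC and for 5 in both. Of these 5, one had 4 reads with PCB-126 and 17 with DMSO in NBH and 7 with PCB-126 and 26 with DMSO in SC, 5.04-fold lower in NBH and 3.79-fold lower in SC. Another had 8 reads with PCB-126 and 26 with DMSO in NBH and 10 with PCB-126 and 33 with DMSO in SC, 4.04-fold lower in NBH and 3.42-fold lower in SC. The larger decrease was in NBH for 15 of the 28 isogroups and in SC for 13. The 2 ratios were within a factor of 1.5 in 17 of the 28, and they were more than a factor of 2 apart in 6. Over the 1164 isogroups that met the conditions on reads, the sizes of the 2 shifts, whatever their direction, gave 708 and 206. The share close in size was again about the same, but 676 of the 1164 had a ratio between 0.5 and 2 in both populations. The 708 also include shifts in opposite directions and are not a count of close ratios. Isogroup17749 had the most unequal pair, with 1 read with PCB-126 and 22 with DMSO in NBH (95% interval of the ratio 0.000850 to 0.217) and 10 with PCB-126 and 23 with DMSO in SC (0.172 to 0.886).

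In all 51 isogroups both PCB-126 libraries lay on the same side of both DMSO libraries. Among the 1164 isogroups with enough reads, both PCB-126 libraries were above both DMSO libraries in 18.5% and below both in 17.2%. The ratios that chose the members largely fix this order, so it is no separate support for them. Near the threshold the choice turned on single reads. Just inside it, an isogroup with 20 reads with PCB-126 and 5 with DMSO in NBH and 35 with PCB-126 and 16 with DMSO in SC had a ratio of 2.01 in SC, and just outside it, one with 54 and 12 reads in NBH and 24 and 11 in SC (PCB-126 before DMSO) had a ratio of 1.99 in SC. On the lower side, an isogroup with 10 and 16 reads in NBH (PCB-126 before DMSO) was inside at a ratio of 0.491, and one with 9 and 14 reads was outside at 0.506.

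A shift in the same direction was about as common as one in opposite directions. Of the 1164 isogroups with enough reads, 14.3% had a ratio of at least 2 in NBH and 11.6% in SC, and 12.1% had a ratio of at most 0.5 in NBH and 11.9% in SC. Both ratios were at least 2 in 1.98% (the 23 isogroups) and at most 0.5 in 2.41% (the 28 isogroups). Opposite shifts were found in 43 isogroups, 25 of them higher with PCB-126 in NBH and lower in SC and 18 lower in NBH and higher in SC. Of the 167 isogroups with a ratio of at least 2 in NBH, 13.8% also had one in SC and 15.0% had a ratio of at most 0.5 in SC. Of the 135 with a ratio of at least 2 in SC, 17.0% also had one in NBH and 13.3% had a ratio of at most 0.5 in NBH. Of the 141 isogroups with a ratio of at most 0.5 in NBH, 19.9% also had one in SC and 12.8% had a ratio of at least 2 in SC. Of the 139 with a ratio of at most 0.5 in SC, 20.1% also had one in NBH and 18.0% had a ratio of at least 2 in NBH. No share was tested, because single libraries give no measure of the scatter between embryo pools, and the counts do not show that the 51 isogroups responded to PCB-126.

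**Figure D2:**
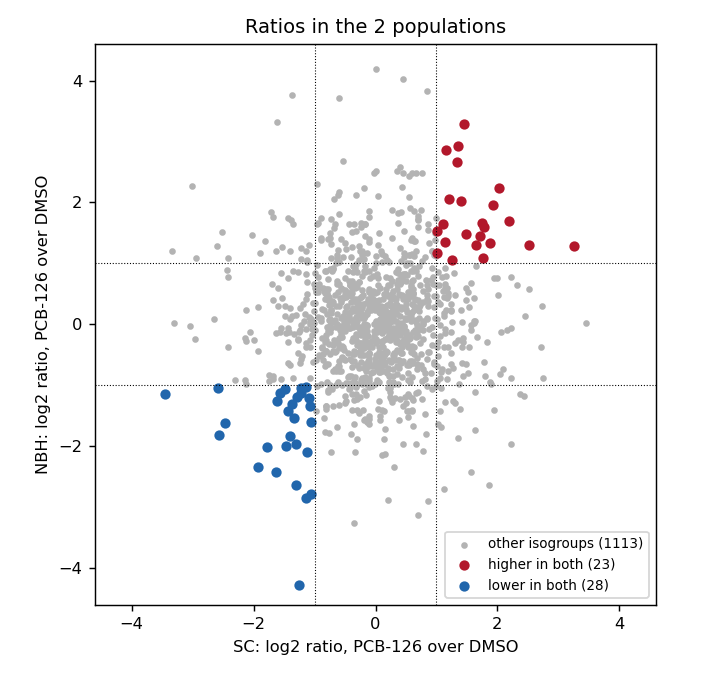
Log2 ratio of PCB-126 over DMSO reads in SC embryos (horizontal axis) and in NBH embryos (vertical axis) for the 1164 isogroups with enough reads, 1 point each, with 0.5 added to each count. Dotted lines mark a ratio of 2 in either direction; the 23 isogroups higher in both (red) and the 28 lower in both (blue) lie in 2 opposite corners by construction, and the other 2 corners hold 43 isogroups.

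Whether same or opposite directions were more common differed with the number of reads required. The sets are nested, the counts at the highest minimum are small, and the difference was not tested. With at least 10 reads in each pair, 173 isogroups shifted in the same direction and 204 in opposite directions, which is 7.30% and 8.61% of 2369 isogroups. With at least 20 reads the counts were 51 and 43, or 4.38% and 3.69% of 1164. With at least 40 reads they were 11 and 7, or 2.03% and 1.29% of 543. The 11 isogroups at that depth were 6 higher with PCB-126 and 5 lower, and isogroup00071, isogroup00401, isogroup00266 and isogroup02212 were among them. All 7 opposite shifts at that depth were higher with PCB-126 in NBH and lower in SC. Of the 101 isogroups left out for having 100 or more reads in every library, none shifted 2-fold in the same direction in both populations, and the highest value of the smaller of their 2 ratios was 1.93.

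**Figure D3:**
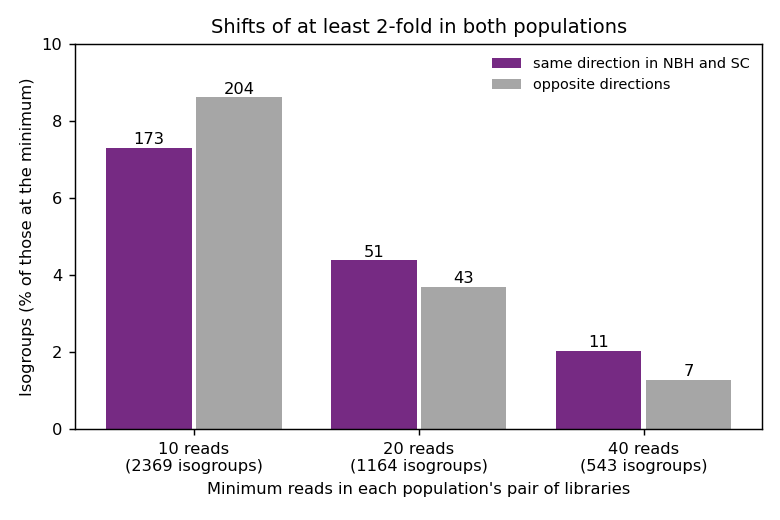
Isogroups with a ratio of at least 2 in either direction in both populations, as a percentage of the isogroups that reach the minimum of reads on the horizontal axis, with the number of isogroups above each bar. Shifts in the same direction (purple) were 173, 51 and 11 and opposite shifts (grey) were 204, 43 and 7 at minimums of 10, 20 and 40 reads.

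The rule did not use the ratio of one population to the other as such, so the members could be compared between NBH and SC. It did use the same 4 counts, asking for reads in both populations and shifts in the same direction. Each isogroup's share of its library was compared by Fisher's exact test (two-sided), with Benjamini-Hochberg adjustment over every isogroup that reached 10 reads in the 2 libraries, and called at an adjusted p under 0.05 with a ratio of at least 2. With PCB-126, 3 of the 51 members were called, 2 higher and 1 lower in NBH, or 5.88%. This test called 26.6% of all 4234 isogroups tested with PCB-126 and 15.1% of the 1164 with enough reads (8.68% higher and 6.44% lower in NBH). With DMSO, 4 of the 47 members tested were called, 1 higher and 3 lower in NBH, or 8.51%. The background with DMSO was 25% of all 3570 isogroups tested and 16.2% of the 1158 tested among those with enough reads (8.72% higher and 7.51% lower in NBH). The members' shares were below both backgrounds in either treatment, a difference that was not tested. Members also held fewer reads over the 4 libraries, with medians of 76 (higher with PCB-126) and 66 (lower) against 92 over the 1164. How far the number of reads bears on the calls was not tested. At a minimum of 30 reads in the pair, the test called 21.1% of 1231 isogroups with PCB-126 and 20.7% of 1045 with DMSO. The rule also bears on the members' counts. The lower shares therefore cannot be taken as a trait of the members. The test compares the reads of 2 libraries and not the populations.

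In the 23 isogroups higher with PCB-126 the populations lay close together where the isogroups were high, with all 23 within 2-fold of each other in the PCB-126 libraries and a median log2 ratio of NBH over SC of -0.0049. In the DMSO libraries 17 of the 23 were within 2-fold and the median log2 ratio was 0.17. In the 28 isogroups lower with PCB-126, 23 were within 2-fold in the PCB-126 libraries and 24 in the DMSO libraries, with median log2 ratios of -0.22 and 0.15. Over the 1164 isogroups with enough reads the median log2 ratio of NBH over SC was 0.04 with PCB-126 and 0.04 with DMSO, and 927 were within 2-fold with PCB-126 and 871 with DMSO. The libraries with few reads of a set, DMSO for the isogroups higher with PCB-126 and PCB-126 for those lower, also have the larger counting error. The choice of members also bears on the libraries where a set was high. It asked for a minimum of reads in each population's pair and for the same shift in both. For the 23, this kept out isogroups whose PCB-126 reads lay almost wholly in a single population. Their closeness in the PCB-126 libraries is therefore in part built in, and cannot be taken as a trait of them.

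Isogroup05408 was the only member called in the same direction under both treatments. It had 17 reads in NBH and 5 in SC with PCB-126, a ratio of NBH over SC of 3.42 (1.29 to 12.7 at 95%) with an adjusted p of 0.0348 by Fisher's exact test. With DMSO it had 47 reads in NBH and 30 in SC, a ratio of 2.02 (1.26 to 3.33 at 95%) with an adjusted p of 0.0147 by Fisher's exact test. It was thus higher in the NBH libraries under either treatment and lower with PCB-126 in both populations. The DMSO call was lost with library sizes from TMM or from DESeq2, and none of the 3 calls with PCB-126 held when all 18466 isogroups with at least 1 read were tested. Isogroup00505 had nearly the same counts, with 17 reads in NBH and 5 in SC with PCB-126 (adjusted p = 0.0348, Fisher's exact test) and 41 in NBH and 28 in SC with DMSO. Its DMSO ratio of 1.89 was under the minimum of 2 (adjusted p = 0.0404, Fisher's exact test). Whether these 2 isogroups belong to 1 transcript was not tested, since no sequences were used.

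Isogroup17749 was the member called lower in NBH with PCB-126, with 1 read in NBH and 10 in SC, a ratio of 0.154 (0.00248 to 0.756 at 95%) with an adjusted p of 0.0433 by Fisher's exact test. With DMSO it had 22 reads in NBH and 23 in SC. With DMSO, isogroup00266 had 33 reads in NBH and 90 in SC, a ratio of 0.481 (0.310 to 0.717 at 95%) with an adjusted p of 0.00197 by Fisher's exact test. With PCB-126 its ratio was 0.502, just inside 2-fold (17 reads in NBH and 37 in SC). Isogroup04163 had 17 reads in NBH and 55 in SC with DMSO, a ratio of 0.410 (0.219 to 0.703 at 95%) with an adjusted p of 0.00422 by Fisher's exact test, and 9 reads in NBH and 19 in SC with PCB-126. All of these belong to the isogroups lower with PCB-126.

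The third member called lower in NBH with DMSO, isogroup01776, belongs to the isogroups higher with PCB-126 and is named after its values were seen. It had 2 reads in NBH and 19 in SC with DMSO, a ratio of 0.167 (0.0155 to 0.567 at 95%) with an adjusted p of 0.00928 by Fisher's exact test. With PCB-126 it had 23 reads in NBH and 46 in SC, a ratio of 0.543 (adjusted p = 0.0523, Fisher's exact test). Its level in SC embryos was above that in NBH embryos under either treatment. Its ratio of PCB-126 to DMSO was 7.25 in NBH (2.19 to 77.7 at 95%) and 2.23 in SC (1.30 to 4.08 at 95%). Both the NBH ratio and the DMSO call rest on the same 2 reads in NBH with DMSO. None of the 23 isogroups higher with PCB-126 was called between the populations with PCB-126. Isogroup01874 had the smallest p among them, with 74 reads in NBH and 48 in SC and an adjusted p of 0.0270 by Fisher's exact test, but its ratio of 1.65 was under the minimum of 2. With DMSO 18 others were tested and not called, and 4 had fewer than 10 reads in the 2 libraries and were not tested.

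With both treatments in one fit, by the quasi-likelihood test of edgeR with population and treatment as additive terms, 0 of the 51 members passed an adjusted p under 0.05 for NBH over SC. In that test 5 members had an unadjusted p under 0.05, and the smallest adjusted p among the members was 0.829 (isogroup01776, edgeR). By the Wald test of DESeq2 0 members passed, and 0 had an unadjusted p under 0.05. Over all 7149 isogroups with at least 10 reads, edgeR called 22 (0.308%) and had 367 at an unadjusted p under 0.05 (5.13%), while DESeq2 called 1 (0.014%) and had 51 at an unadjusted p under 0.05 (0.713%). The fit leaves 1 residual degree of freedom per isogroup, which is the difference of the PCB-126 ratio between the populations, and the rule bears on that difference for the members.

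**Figure D4:**
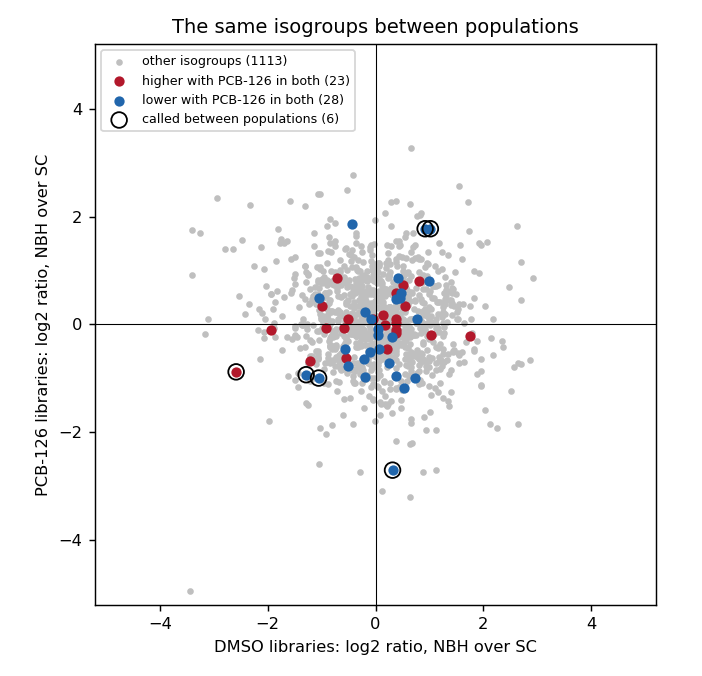
Log2 ratio of NBH over SC reads in the DMSO libraries (horizontal axis) and in the PCB-126 libraries (vertical axis), 1 point for each of the 1164 isogroups with enough reads, with 0.5 added to each count. The 51 members (red, higher with PCB-126 in both populations; blue, lower in both) lie mostly within 2-fold on both axes (37 of 51), as do most of all the isogroups shown (708 of 1164). Circles mark the 6 members called by Fisher's exact test under at least 1 treatment.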

How the data were processed

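The authors deposited raw counts of uniquely matching reads per isogroup, not normalized, for 4 libraries of 3'-anchored cDNA sequenced by pyrosequencing. The matching and counting tools are not given in the sources used here, and Newbler 2.5 is named for the shotgun assemblies only. In all, 7 blank cells were read as 0. The 2 shotgun libraries, from untreated embryos and larvae, were not used here. Library size was the column sum (95410 to 132893 reads), and ratios used 0.5 added reads. Populations were compared with Fisher's exact test and, over both treatments, with edgeR after TMM scaling. Both steps were tried on simulated counts with counting error only, and changes were planted in isogroups of 100 or more reads in total. Most members had fewer reads, so the simulation does not show how the tests perform on them. The members and tests were chosen with earlier results of these data known. Isogroups named are the 2 of most reads in each set and the 2 called members of smallest p in each direction of each population comparison; isogroup01776 and isogroup01874 were added after their values were seen. Alternatives were other library sizes, added reads, read minimums and ratios, thinned libraries and DESeq2. Python 3.11.15, numpy 2.4.6, scipy 1.17.1, pandas 2.3.3, matplotlib 3.10.9, R 4.3.3, edgeR 4.0.16 and DESeq2 1.42.0 were used.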

Additional observations from a re-analysis of the deposited data

How the results depend on the processing

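No paired analysis was possible because each condition has 1 library, and for the same reason no replicate could be left out. With other library sizes or 1 added read, 21 to 28 isogroups were higher with PCB-126 in both populations and 27 or 28 lower, and all 51 members kept their direction under library sizes from TMM, from DESeq2 and from totals without the 10 most abundant isogroups. The sets followed the thresholds: with at least 10 reads in each pair, 88 were higher and 85 lower; with at least 40 reads, 6 and 5; with a ratio of at least 1.5, 84 and 75; with a ratio of at least 3, 5 and 5. For libraries thinned to 95410 reads a single random draw was planned, which gave 21 higher and 23 lower. The same seed with the libraries in another order gave 16 and 17. Since single draws differed this much, 20 draws were added after the data had been seen, in which 14 to 27 isogroups were higher (median 19), 11 to 17 of them among the 23, and 14 to 24 lower (median 20), 14 to 20 of them among the 28.

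Of the members, 3 were called between NBH and SC with PCB-126, and 0 with a minimum of 1 read, 0 with a minimum of 30 reads, 5 without a minimum ratio, 1 with a ratio of at least 4, 1 in the planned thinned draw, 1 in the draw with the other order and 0 to 3 in the 20 draws (median 0). The minimum of 30 reads left 28 members to test. The 3 called members fell below it, so they were not tested there. With DMSO the 4 calls became 6 without a minimum ratio and 1 with a ratio of at least 4. Totals without the 10 most abundant isogroups gave 5, and a minimum of 30 reads gave 3. There were 3 in the planned thinned draw, 5 in the draw with the other order and 2 to 7 in the 20 draws (median 4). The call of isogroup05408 was lost under TMM, DESeq2 sizes and a minimum of 1 read. The ratios of the 2 isogroups of most reads in each set stayed within their intervals under every library size and with 1 added read. A DMSO or PCB-126 count of 1 to 3 reads limits the ratios of the thinnest members.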
